A study of Mus musculus with 16 samples.

Results

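A set of 10 feedback genes of MAP kinase signalling, most of which act on ERK or on the steps above it, were examined in the epidermis of the mouse footpad, out of 50600 gene identifiers counted in the same libraries. They were taken by symbol and comprised 5 dual-specificity phosphatases (Dusp1, Dusp4, Dusp5, Dusp6 and Dusp10), 3 Sproutys (Spry1, Spry2 and Spry4) and 2 Spreds (Spred1 and Spred2). All 10 were found under 1 identifier each, and all 10 were among the 22155 genes tested, which had 10 or more counts over the libraries. The 16 libraries each came from the epidermal cells of a female C57/B6J mouse, 4 per group. From 5 wk of age and for 3 wk, the mice ate a purified diet poor in ligands of the aryl hydrocarbon receptor AhR (labelled SYNTH, called the AhR-poor diet here) or the same food supplemented at 200 ppm with I3C (indole-3-carbinol), a precursor of AhR ligands. The footpad was then injected with 50 μl of PBS, which was the vehicle or carried 50 μg of the allergenic protease papain, and the epidermis was taken 6 hr later. No engineered allele is named for these mice. Mice on the same diet shared a cage, so diet and cage cannot be told apart.

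ERK lies at the end of the cascade that runs from growth factor receptors such as the EGF receptor through Ras, Raf and MEK. ERK activity switches on genes whose products then damp it: the DUSP phosphatases remove the activating phosphates from ERK, JNK and p38, whereas Sprouty and Spred proteins act above them, between the receptor and Raf. In the epidermis this cascade is best known for the control of keratinocyte proliferation, migration and repair downstream of EGF receptor ligands. Because these genes are induced within minutes to hours, their mRNA also rises in cells that are warmed and dissociated for analysis. A change in mRNA is not a change in ERK phosphorylation, which was not measured in these libraries.

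A pair of vehicle libraries stood apart across these genes. Within the I3C vehicle group, T108 was the highest of the 4 libraries for 10 of the 10 genes, although it was the highest for 30.3% of the 13026 genes that averaged 1 CPM or more (CPM being counts divided by the TMM-scaled library size). Within the AhR-poor vehicle group, T100 was the highest for 9 of the 10 genes and for 26.2% of the 13026. Among papain libraries, T104 was the highest of the AhR-poor group for 7 of the 10 genes, beside 23% of the 13026. T113 was the highest of the I3C group for 6 of the 10 and the lowest for 4, and was the highest for 22.9% of the 13026. The summed level of 10 other genes known to rise during warm dissociation (among them Jun, Fosb and Hspa1a) was 33653 CPM in T108 against 18585 to 21137 CPM in the other I3C vehicle libraries. In T100 it was 21908 CPM, against 13154 to 18156 CPM in the other AhR-poor vehicle libraries. With papain it lay between 11461 and 15050.3 CPM on both diets, below every I3C vehicle library and overlapping the AhR-poor vehicle libraries. The part of this in the results on these genes was not tested, and values without T108 and T100 are given for each gene but Spred1. Library totals were 22500821 to 51844375 counts, and the 10 genes had between 52 and 87431 counts per library.

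The labelled tissue was matched by its defining genes. The 10 keratinocyte markers summed to 44133 to 70749.8 CPM and none was at 0. Markers of dermal cells were present too and differed between the diets. The 10 fibroblast markers summed to 178 to 244 CPM (I3C vehicle), 112.3 to 153 CPM (I3C papain), 237 to 321 CPM (AhR-poor vehicle) and 409.98 to 815 CPM (AhR-poor papain), so that the vehicle groups overlapped. Sparc, which other skin cells express too, supplied much of the sum in the vehicle groups, at 168 to 234 CPM on the I3C diet and 137 to 167 CPM on the AhR-poor diet. The 9 others, among them the collagen genes Col1a1 and Col3a1, summed to 9.58 to 13.6 CPM (I3C vehicle), 2.37 to 11.6 CPM (I3C papain), 97.2 to 174 CPM (AhR-poor vehicle) and 262 to 654 CPM (AhR-poor papain), without overlap between the diets. The 6 markers of Langerhans cells, the antigen-presenting cells of the epidermis, summed to 326 to 578 CPM (I3C vehicle), 345 to 692 CPM (I3C papain), 774 to 866 CPM (AhR-poor vehicle) and 824 to 995 CPM (AhR-poor papain), with none at 0. The 10 endothelial markers summed to at most 4.03 CPM in every I3C library and to 17.4 to 72.6 CPM in every AhR-poor library. The 8 markers of mural cells (vessel walls) summed to 135 to 222 CPM (I3C vehicle), 252 to 306 CPM (I3C papain), 139 to 223 CPM (AhR-poor vehicle) and 146 to 201 CPM (AhR-poor papain). With papain this sum was thus lower on the AhR-poor diet. Notch3 supplied most of the sum, at means of 254 CPM (I3C papain) and 155 CPM (AhR-poor papain). Marker by marker the order was mixed. After papain the median log2 fold change of the 8, AhR-poor relative to I3C, was 0.75. At an edgeR adjusted p below 0.01, 4 markers lay higher in AhR-poor fed mice and 1 lay lower. The 8 T cell markers summed, in the same order of groups, to 14.0 to 22.4, 10.9 to 32.2, 19.7 to 34.5 and 22.9 to 62.0 CPM. The 10 neutrophil markers summed to 0.517 to 1.081 CPM (I3C vehicle), 21.8 to 31.2 CPM (I3C papain), 2.92 to 4.05 CPM (AhR-poor vehicle) and 76.7 to 478 CPM (AhR-poor papain). The 10 macrophage markers summed, in the same order, to 7.37 to 9.94, 7.86 to 25.5, 20.4 to 30.9 and 103.04 to 519 CPM. Neutrophil sums were thus higher with papain on both diets without overlap, macrophage sums on the AhR-poor diet, and both were higher in AhR-poor fed mice under either injection. Of the neutrophil markers, Ly6g was at 0 in every group but AhR-poor papain, where Mpo was at 0. Ngp was also at 0 with papain on the I3C diet, as were Mmp8, Ltf and Mpo with vehicle there. Of the macrophage markers, Fcgr1 was at 0 in the I3C vehicle group. The part of these cells in the differences with papain was not tested. In bulk RNA, a change in the share of a cell type and a change in RNA per cell cannot be told apart.

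The sequence before the start of 4 of the genes is shown because Spred2 and Spry1 fell with papain on both diets, Dusp1 fell on the I3C diet, and Dusp6 lay above its vehicle group on the AhR-poor diet without passing the test. Of the 10 genes, 8 were matched to the RefSeq promoter table used here (GRCm38.p6), and Dusp4 and Spry4 were not. The windows are the 250 bases before the start, read 5′ to 3′ on the strand of the gene and shortened where GENCODE M21 places an exon of a protein-coding gene. Spred2 is at chr11:19924192-19924374 on the plus strand, Spry1 at chr3:37639697-37639946 on the plus strand (over the opposite-strand gene Gm42922), Dusp1 at chr17:26508520-26508722 on the minus strand (within a longer annotated Dusp1 transcript) and Dusp6 at chr10:99262981-99263230 on the plus strand. Capitals mark matches to the motifs searched.
Spred2: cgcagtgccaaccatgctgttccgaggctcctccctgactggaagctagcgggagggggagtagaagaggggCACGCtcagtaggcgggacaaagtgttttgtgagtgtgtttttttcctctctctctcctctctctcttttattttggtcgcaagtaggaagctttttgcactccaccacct
Spry1: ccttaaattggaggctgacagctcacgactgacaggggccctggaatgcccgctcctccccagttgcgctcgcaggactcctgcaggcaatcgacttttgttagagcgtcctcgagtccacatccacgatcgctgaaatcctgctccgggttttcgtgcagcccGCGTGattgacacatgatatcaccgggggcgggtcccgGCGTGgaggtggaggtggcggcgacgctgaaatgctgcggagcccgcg
Dusp1: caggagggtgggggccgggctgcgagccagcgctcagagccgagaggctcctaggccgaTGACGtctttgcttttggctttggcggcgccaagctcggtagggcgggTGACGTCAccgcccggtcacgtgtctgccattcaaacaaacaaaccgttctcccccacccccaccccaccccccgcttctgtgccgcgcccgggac
Dusp6: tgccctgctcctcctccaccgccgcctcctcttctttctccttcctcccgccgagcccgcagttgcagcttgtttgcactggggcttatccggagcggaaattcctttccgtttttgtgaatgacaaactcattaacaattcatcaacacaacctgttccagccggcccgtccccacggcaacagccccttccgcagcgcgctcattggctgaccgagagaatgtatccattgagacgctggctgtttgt

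The motifs were searched on both strands in the full 250 bases. The cAMP response element TGACGTCA, which holds the shorter motif TGACG on both strands, was in the Dusp1 window alone, 143 to 136 bases before the start, and was in 1.55% of 32851 windows of the same length. This shorter cAMP response motif was in 3 of the 8 windows (Dusp1, Dusp5 and Spred2) and in 17.8% of all. The Spred2 match lies 51 to 47 bases before the RefSeq start, in the stretch not printed. The core of the AhR response element, GCGTG, was in 3 of the 8 windows (Spred2, Spry1 and Dusp5) and in 28.2% of all. The CArG box bound by serum response factor was in the Dusp5 window alone, 2 matches, and in 1.47% of all. The AP-1 site TGANTCA (6.75% of all windows) and the ETS site CCGGAAG (6.91%) were in none of the 8. These matches are a description of the letters and not of binding.

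Per kb of annotated exon, Dusp1 was the most abundant of the genes in all 4 groups. Its mean level was 587 ± 118 CPM per kb (SD, n = 4) with vehicle on the I3C diet, 382 ± 17.2 with papain on the I3C diet, 460.1 ± 59.1 with vehicle on the AhR-poor diet and 378 ± 35.3 with papain on the AhR-poor diet. The level of the gene in second place was at most 52.5 CPM per kb. With vehicle that gene was Spry1, on either diet, and with papain it was Dusp6, on either diet. Spry1, Dusp5 and Dusp6 overlapped with a neighbour in that order in the I3C vehicle group, as did Dusp5 and Dusp6 in the AhR-poor vehicle group. Spred2, Spry2 and Spred1 followed, between 6.02 and 17.1 CPM per kb. Dusp4 and Dusp10 came next, between 1.17 and 3.36 CPM per kb, and their libraries overlapped in both AhR-poor groups but not in the I3C groups. Spry4 was the lowest in every group, between 0.424 and 0.801 CPM per kb, without overlap with the gene above it.

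**Figure D1:**
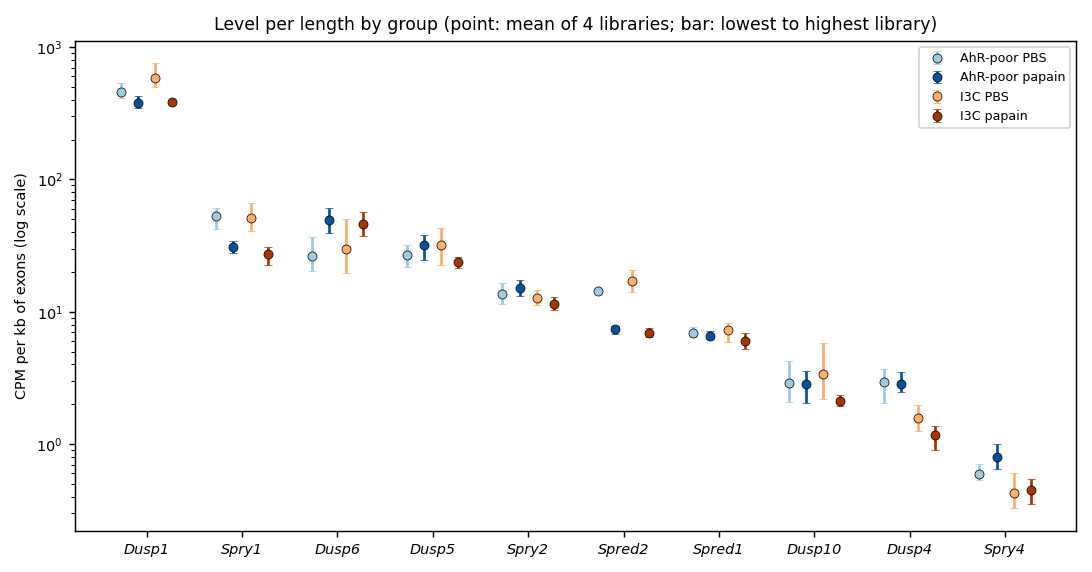
Level of each gene per kb of exon (vertical axis, CPM per kb, log scale) in the 4 groups, with the mean of 4 libraries as a point and the lowest and highest library as a bar. Dusp1 sits above all others in every group and Spry4, at 0.424 to 0.801 CPM per kb, below all others.

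With papain, the clearest differences among the 10 genes were in Spred2 and Spry1, which fell on both diets, while Dusp6 was the 1 phosphatase with a positive log2 fold change on both diets, which did not pass. A gene is said to be differentially expressed when its log2 fold change lay beyond 1 with an edgeR adjusted p below 0.01, and to pass at any fold at that adjusted p alone. On the AhR-poor diet, 0 of the 10 genes were differentially expressed, against 6.04% higher and 2.42% lower among the 22155 genes. At an unadjusted edgeR p below 0.05, 1 was higher (21.6% of all genes) and 3 were lower (20.3% of all genes). DESeq2 also called 0, with 2 higher and 3 lower at an unadjusted p below 0.05. At any fold, 0 were higher (12.4% of all genes) and 2 were lower (10.1% of all genes). On the I3C diet, 0 were higher (3.69% of all genes) and 1 was lower (5.29% of all genes), and at any fold 0 were higher (12.7%) and 3 were lower (12.9%). At an unadjusted p below 0.05, 1 was higher and 7 were lower on the I3C diet in edgeR and in DESeq2, beside 20.4% and 22.9% of all genes in edgeR. The median log2 fold change of the 10 genes was -0.04 on the AhR-poor diet and -0.43 on the I3C diet, beside 0.00 and -0.04 for all genes. Papain libraries lay entirely above vehicle for 1 gene and entirely below for 2 on the AhR-poor diet, where 17% and 16% of all genes did so, and for 0 and 3 on the I3C diet, where 16.2% and 17.3% did so.

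Spred2, a Spred protein that binds Ras and limits the activation of Raf, had the most precise difference. On the AhR-poor diet it measured 67.7 CPM (T100), 67.7 (T101), 62.8 (T102) and 66.9 (T103) with vehicle and 35.8 (T104), 31.6 (T105), 35.4 (T107) and 34.4 (T112) with papain. On the I3C diet it measured 95.3 CPM (T108), 79.0 (T109), 75.3 (T110) and 65.6 (T111) with vehicle and 32.6 (T106), 34.7 (T113), 29.7 (T114) and 31.1 (T115) with papain. All 8 papain libraries were below all 8 vehicle libraries, and the papain levels of the 2 diets overlapped. On the AhR-poor diet Spred2 fell by 0.95 on the log2 scale (SE 0.091, 0.517-fold, edgeR adjusted p = 3.76e-07), just short of the fold threshold. It fell by 1.30 on the I3C diet (SE 0.092, 0.407-fold, edgeR adjusted p = 6.70e-09), the single differentially expressed gene of the 10 there. Without T108 and T100 the log2 fold changes were -0.93 and -1.20.

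Spred1, its close relative, did not pass on either diet. It measured 44.1 to 52.2 CPM with vehicle and 42.5 to 48.4 CPM with papain on the AhR-poor diet, and 40.2 to 56.3 CPM with vehicle and 35.8 to 46.9 CPM with papain on the I3C diet. Its log2 fold change was -0.07 (SE 0.099, edgeR adjusted p = 0.645) on the AhR-poor diet and -0.28 (SE 0.099, edgeR adjusted p = 0.0333) on the I3C diet, and the groups overlapped on both.

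Spry1, a Sprouty that blocks receptor signalling above Raf, fell on both diets. With vehicle it measured 177 CPM (T100), 124 (T101), 155 (T102) and 155 (T103) on the AhR-poor diet, and with papain 81.4 (T104), 92.1 (T105), 99.2 (T107) and 85.7 (T112). On the I3C diet it measured 193 CPM (T108), 136 (T109), 148 (T110) and 118 (T111) with vehicle and 89.8 (T106), 66.1 (T113), 78.2 (T114) and 85.9 (T115) with papain. Every papain library was below every vehicle library. The log2 fold change was -0.77 (SE 0.14, 0.587-fold, edgeR adjusted p = 2.97e-04) on the AhR-poor diet and -0.90 (SE 0.14, 0.538-fold, edgeR adjusted p = 5.38e-05) on the I3C diet, and -0.68 and -0.76 without T108 and T100. Spry1 shares 710 of its 2906 exonic bases with the opposite-strand gene Gm42922. The kit marks strand but the strand setting of the counting is not given in the sources used here, so reads from those 710 bases may not all have been Spry1 reads.

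The other Sproutys did not pass with papain. Spry2, the family member most studied as an inhibitor of growth factor signalling, had a log2 fold change of 0.16 (SE 0.12, edgeR adjusted p = 0.314) on the AhR-poor diet and -0.17 (SE 0.12, edgeR adjusted p = 0.295) on the I3C diet. Spry4, which measured 1.55 to 4.78 CPM from 52 to 222 counts per library, had a log2 fold change of 0.44 (SE 0.21, edgeR adjusted p = 0.127) and 0.08 (SE 0.22, edgeR adjusted p = 0.814). Without T108 and T100 the values were 0.28 and -0.11 for Spry2 and 0.55 and 0.30 for Spry4. Both overlapped between papain and vehicle on both diets.

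Dusp6, the cytoplasmic phosphatase that is specific for ERK, had a positive log2 fold change with papain. On the AhR-poor diet it measured 114.7 CPM (T100), 72.1 (T101), 83.3 (T102) and 63.2 (T103) with vehicle and 189 (T104), 125 (T105), 181 (T107) and 123 (T112) with papain. On the I3C diet it measured 157 CPM (T108), 79.3 (T109), 61.9 (T110) and 76.5 (T111) with vehicle and 143 (T106), 176 (T113), 137 (T114) and 118 (T115) with papain. The papain libraries were all above vehicle on the AhR-poor diet, and on the I3C diet they were above 3 of the 4 vehicle libraries, T108 lying within their range. The log2 fold change was 0.89 (SE 0.28, 1.85-fold, edgeR adjusted p = 0.0238) on the AhR-poor diet and 0.62 (SE 0.28, 1.53-fold, edgeR adjusted p = 0.104) on the I3C diet, past 0.01 on neither. DESeq2 gave an adjusted p of 0.00133 on the AhR-poor diet. T108 and T100 were left out together after the data were seen. The log2 fold change was then 1.09 (edgeR adjusted p = 5.31e-04) and 0.97 (edgeR adjusted p = 0.00103). Dusp6 was then differentially expressed on the AhR-poor diet. Both libraries held the highest vehicle value of Dusp6 in their group, so leaving them out raises its fold change by choice and is no support. Leaving out T108 alone gave 0.98 (edgeR adjusted p = 0.00255) on the I3C diet, and on the AhR-poor diet an adjusted p of 0.00267 with the log2 fold change at 0.89. On each diet this was the 1 fit below 0.01 of the 16 that left out 1 library. On the AhR-poor diet, Dusp6 was at 1.09 without T100 alone (edgeR adjusted p = 0.0116) and at 0.78 without T104 (edgeR adjusted p = 0.0736). On the I3C diet the edgeR adjusted p was 0.238 without T113.

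Dusp1, an immediate early phosphatase of p38, JNK and ERK, fell on the I3C diet. It measured 2511 CPM (T108), 1710 (T109), 1896 (T110) and 1657 (T111) with vehicle and 1296 (T106), 1329.8 (T113), 1227 (T114) and 1209 (T115) with papain. The papain libraries were all below the vehicle libraries. The log2 fold change was -0.62 (SE 0.12, 0.651-fold, edgeR adjusted p = 3.62e-04), and without T108 and T100 it was -0.48 (edgeR adjusted p = 3.00e-04). On the AhR-poor diet it measured 1368 to 1776 CPM with vehicle and 1152 to 1409 CPM with papain, which overlapped (log2 fold change -0.28, SE 0.12, edgeR adjusted p = 0.0704). The summed dissociation-associated genes were also lower with papain on the I3C diet, at 12887 to 15050.3 CPM against 18585 to 33653 CPM, and their part in the Dusp1 result was not tested.

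The remaining phosphatases did not pass with papain on either diet. Dusp5, a nuclear phosphatase of ERK, had a log2 fold change of 0.25 (SE 0.17) on the AhR-poor diet and -0.43 (SE 0.17) on the I3C diet, with edgeR adjusted p of 0.311 and 0.0675. Dusp10, which acts on p38 and JNK, had -0.03 (SE 0.28) and -0.66 (SE 0.28), with edgeR adjusted p of 0.961 and 0.0798, and T108 alone measured 17.5 CPM against 6.64 to 8.70 CPM in the other I3C vehicle libraries. Dusp4, a nuclear phosphatase of ERK and JNK, had -0.05 (SE 0.18) and -0.42 (SE 0.19), with edgeR adjusted p of 0.874 and 0.0969. Without T108 and T100 the values on the I3C diet were -0.27 (Dusp5), -0.28 (Dusp10) and -0.31 (Dusp4), and those on the AhR-poor diet were 0.35, 0.22 and 0.095. Dusp5 shares 547 of its 2473 exonic bases with the opposite-strand gene AC137853.2, with the same limit as for Spry1.

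**Figure D2:**
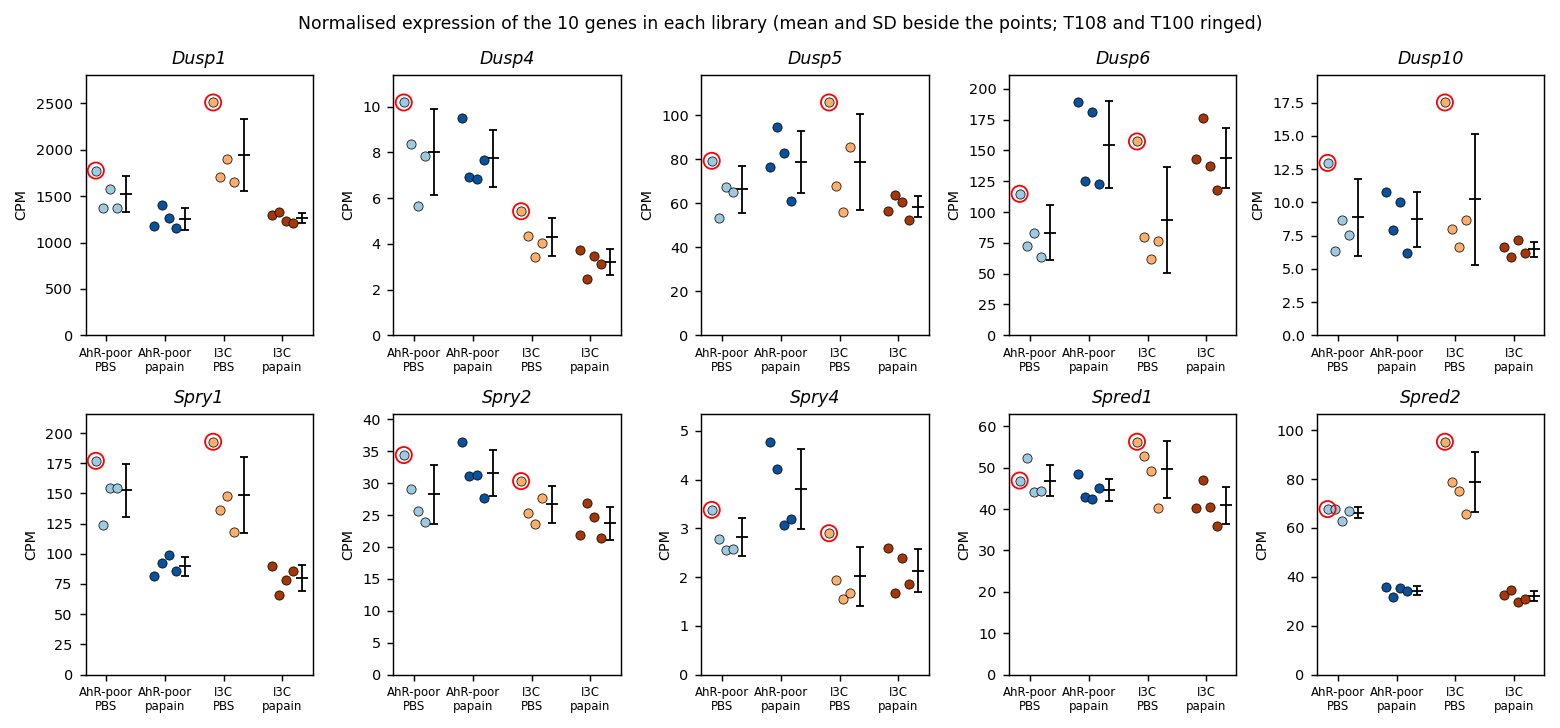
Normalised expression (vertical axis, CPM) of each gene in every library of the 4 groups, with the group mean and SD beside the points and the libraries T108 and T100 ringed. Spred2 and Spry1 are lower with papain on both diets without overlap, and T108 is the top point of its group in all 10 panels.

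Between the diets, Dusp4 passed with both injections, at higher levels on the AhR-poor diet, and Spry4 passed at any fold with papain. With vehicle, 0 of the 10 genes were differentially expressed, against 1.59% higher and 0% lower among all genes. At any fold 1 was higher (1.72% of all genes) and 0 were lower (0% of all genes), and DESeq2 gave the same counts. At an unadjusted p below 0.05, 2 were higher and 2 were lower in edgeR and in DESeq2, beside 8.94% and 3.54% of all genes in edgeR. With papain, 1 was higher (7.15% of all genes) and 0 were lower (0.0993% of all genes), and at any fold 2 were higher (8.13%) and 0 were lower (3.07%), whereas DESeq2 gave 3 higher at any fold, with Spry2 added. At an unadjusted p below 0.05, 4 were higher and 0 were lower with papain in edgeR and in DESeq2, beside 17.5% and 14.5% of all genes in edgeR. Libraries of the AhR-poor diet lay entirely above those of the I3C diet for 1 gene with vehicle (6.45% of all genes) and for 3 with papain (12.5%), and entirely below for 0 in either (1.67% and 12.3%). The median log2 fold change of the 10 genes was -0.13 with vehicle and 0.29 with papain, beside -0.01 and 0.01 for all genes.

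With vehicle, Dusp4 measured 10.2 CPM (T100), 8.39 (T101), 5.64 (T102) and 7.86 (T103) on the AhR-poor diet and 5.43 (T108), 4.36 (T109), 3.43 (T110) and 4.02 (T111) on the I3C diet. With papain it measured 9.53 CPM (T104), 6.92 (T105), 6.84 (T107) and 7.67 (T112) on the AhR-poor diet and 3.75 (T106), 2.47 (T113), 3.48 (T114) and 3.11 (T115) on the I3C diet. The 8 AhR-poor libraries were all above the 8 I3C libraries. The log2 fold change was 0.90 (SE 0.19, 1.86-fold, edgeR adjusted p = 0.00851) with vehicle, which passed at any fold, and 1.27 (SE 0.19, 2.41-fold, edgeR adjusted p = 9.59e-05) with papain. With vehicle the adjusted p was below 0.01 in 6 of the 16 fits that left out 1 library, and the log2 fold change passed 1 without T108 (1.02) and without T102 (1.02). It did not pass at any fold without T100 (0.75, edgeR adjusted p = 0.0434) or without T108 and T100 (0.87, edgeR adjusted p = 0.0317). With papain it stayed below 0.01 in all 16.

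Between the diets, the marker sums of several other cells moved with Dusp4. The endothelial markers, the Langerhans markers and the 9 fibroblast markers other than Sparc had higher sums in AhR-poor fed mice under either injection, without overlap, at the values given above. The neutrophil and macrophage sums did so too. The mural sums, of which Notch3 supplied most with papain, did not. The median log2 fold change of the 8 mural markers was 0.65 with vehicle, where 0 were differentially expressed. It was 0.75 with papain, where 4 were differentially expressed upwards and 0 downwards, and 1 was lower at any fold. With papain on the AhR-poor diet the fibroblast, neutrophil and macrophage sums rose without overlap, at the values given above. Dusp4 had a log2 fold change of -0.05 (SE 0.18) there. With the mean log2 level of the fibroblast markers as a covariate, the Dusp4 log2 fold change with papain was 0.97 (SE 0.91, edgeR adjusted p = 1) and with vehicle 0.72 (SE 0.55, edgeR adjusted p = 1), and neither passed. The SE without the covariate was 0.19 with either injection. The covariate itself lay between -1.42 and -0.013 in the I3C libraries and between 2.62 and 5.53 in the AhR-poor libraries, so diet and fibroblast level cannot be told apart in this fit, and a lost call there says nothing of either. The part of Langerhans cells, endothelial cells, mural cells, neutrophils and macrophages in the Dusp4 result was not tested.

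Of the Sproutys, Spry4 passed at any fold between the diets with papain, and Spry2 lay on either side of the threshold depending on the setting. Spry4, which restrains Ras activation, measured 4.78 CPM (T104), 4.21 (T105), 3.07 (T107) and 3.18 (T112) on the AhR-poor diet and 2.61 (T106), 1.67 (T113), 2.40 (T114) and 1.87 (T115) on the I3C diet. The groups were apart, with a log2 fold change of 0.84 (SE 0.22, edgeR adjusted p = 0.00997), which lies at the threshold and was below 0.01 in 8 of the 16 fits that left out 1 library. Without T104 the Spry4 log2 fold change was 0.70 (edgeR adjusted p = 0.0437). Spry2 measured 36.5 CPM (T104), 31.2 (T105), 31.2 (T107) and 27.6 (T112) against 21.9 (T106), 26.9 (T113), 24.7 (T114) and 21.4 (T115). These too were apart, with a log2 fold change of 0.41 (SE 0.12, edgeR adjusted p = 0.0171) that did not pass. The adjusted p of Spry2 was 0.00877 in DESeq2 and, in edgeR, 0.00577 with scaling by library size only, 0.00812 without T100, 0.0142 without T108 and 0.00675 without both. For Spry2 it was below 0.01 in 1 of the 16 fits that left out 1 library. Without T104 the Spry2 log2 fold change was 0.32 (edgeR adjusted p = 0.0925). With vehicle, the log2 fold change was 0.48 (SE 0.22, edgeR adjusted p = 0.369) for Spry4 and 0.08 (SE 0.12, edgeR adjusted p = 0.873) for Spry2. These vehicle values were 0.60 and 0.025 without T108 and T100. With the fibroblast markers as covariate, the papain values were 0.25 (SE 1.05) and -0.19 (SE 0.57), both with an edgeR adjusted p of 1, under the same limit.

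The genes that fell with papain did not pass between the diets. With papain, the log2 fold change between the diets was 0.10 (SE 0.091, edgeR adjusted p = 0.521) for Spred2 and 0.16 (SE 0.14, edgeR adjusted p = 0.457) for Spry1. For Dusp6 it was 0.11 (SE 0.28, edgeR adjusted p = 0.848). With vehicle, Spred2 had -0.25 (SE 0.090, edgeR adjusted p = 0.189) and Dusp1 -0.35 (SE 0.12, edgeR adjusted p = 0.147). The library T108 was the highest of its group for both, and without it these values were -0.15 and -0.20. They were -0.17 and -0.30 without both T108 and T100.

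**Figure D3:**
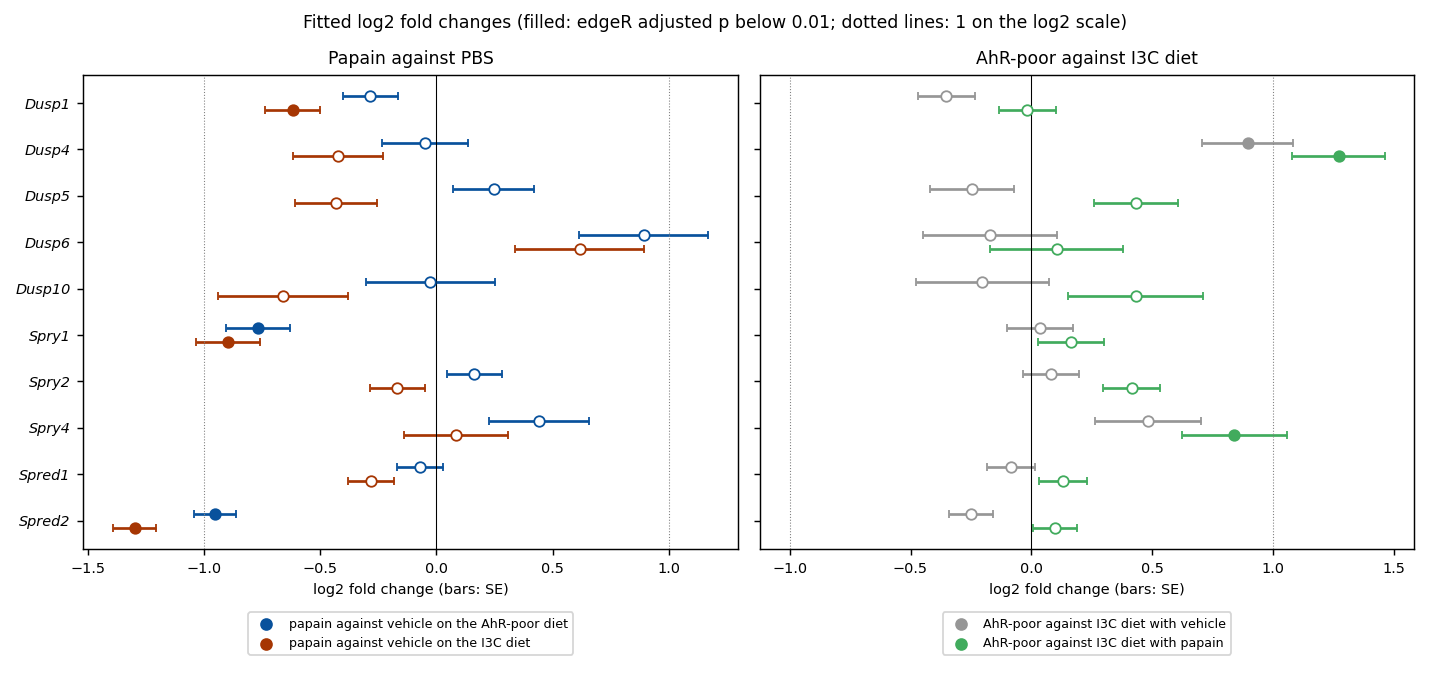
Fitted log2 fold change of each gene (horizontal axis, with SE bars) for papain against PBS on each diet (left) and for the AhR-poor diet relative to I3C under each injection (right). Filled points passed an edgeR adjusted p of 0.01, namely Spred2 and Spry1 on both diets and Dusp1 on the I3C diet at left, and Dusp4 with either injection and Spry4 with papain at right.

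Whether the response to papain differed between the diets was asked with the interaction term. None of the 10 genes passed (0 higher and 0 lower, at any fold as well), and 0.0181% of all genes were differentially expressed upwards and 0% downwards, the same shares as at any fold. At an unadjusted p below 0.05, 2 were higher and 0 lower in edgeR and in DESeq2, which also called 0, beside 7.41% and 6.07% of all genes in edgeR. These were Dusp5, at 0.68 on the log2 scale (SE 0.25, edgeR adjusted p = 0.266), and Spred2, at 0.35 (SE 0.13, edgeR adjusted p = 0.262). The difference in Dusp4 between papain and vehicle across diets, at 0.38 (SE 0.27, edgeR adjusted p = 0.566), and that in Dusp1, at 0.33 (SE 0.17, edgeR adjusted p = 0.390), did not pass, so the call of Dusp1 on 1 diet alone does not show that the diets differ. Without T108 the interaction was 0.25 for Dusp4 and 0.19 for Dusp1.

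The other members of the pathway were read from lists by role. The shares of all genes given above for each comparison apply to the counts in these lists too. The EGF receptor list held 10 genes, 7 ligands and 3 receptors. Of the 7 ligands, 4 rose with papain on the AhR-poor diet and 3 on the I3C diet, and 0 fell at any fold. On the AhR-poor diet these were Epgn (log2 fold change 1.82, SE 0.36), Tgfa (1.75, SE 0.26), Btc (1.39, SE 0.35) and Areg (1.39, SE 0.20), with edgeR adjusted p of 0.00157, 1.07e-04, 0.00485 and 5.19e-05. On the I3C diet they were Tgfa (2.06, SE 0.26), Epgn (1.55, SE 0.36) and Areg (1.27, SE 0.20), with edgeR adjusted p of 1.84e-05, 0.00391 and 9.14e-05. The median log2 fold change of the 7 ligands was 1.39 and 0.75, and that of all 10 genes was 0.35 and 0.50. Of the 3 receptors, 0 were differentially expressed with papain, and Egfr, the EGF receptor itself, rose at any fold on the I3C diet (0.74, edgeR adjusted p = 7.57e-06). Between the diets 0 of the 10 genes were differentially expressed with either injection. With papain the receptors Egfr (-0.57, edgeR adjusted p = 3.52e-04) and Erbb3 (-0.53, edgeR adjusted p = 0.00108) were lower at any fold on the AhR-poor diet, and 0 ligands passed. Keratinocyte markers went both ways in that comparison. Dsp (-0.62, edgeR adjusted p = 0.00359) and Trp63 (-0.39, edgeR adjusted p = 0.00857) were lower at any fold, Ivl was at 0.92 (edgeR adjusted p = 0.0357) and Krt5 at 0.01. Their part in the receptor results was not tested. The ligands Hbegf, Ereg and Egf did not pass with papain on either diet. They were at -0.05, 0.51 and -0.64 on the AhR-poor diet and at -0.36, 0.75 and -0.30 on the I3C diet. Btc did not pass on the I3C diet (0.11).

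Of the 20 genes of the Ras to ERK cascade itself, 1 was differentially expressed with papain on each diet, and it was Ksr1, the scaffold that brings Raf, MEK and ERK together. It rose from 34.6 ± 2.52 to 76.1 ± 4.84 CPM (SD, n = 4 each) on the AhR-poor diet (log2 fold change 1.14, SE 0.12, edgeR adjusted p = 8.67e-07) and from 36.4 ± 3.55 to 113.9 ± 23.8 CPM on the I3C diet (1.64, SE 0.12, edgeR adjusted p = 7.97e-09). Map2k1, which encodes MEK, rose at any fold, by 0.86 and 0.9999, the latter just inside the fold threshold. In all, 3 of the 20 rose and 3 fell at any fold on the AhR-poor diet, beside 12.4% and 10.1% of all genes. On the I3C diet 6 rose and 2 fell, beside 12.7% and 12.9% of all genes. Mapk3, which encodes ERK1, fell at any fold on both (-0.51 and -0.52, edgeR adjusted p = 8.54e-05 and 5.54e-05), as did Sos2, which loads Ras with GTP (-0.58 and -0.37, edgeR adjusted p = 6.19e-05 and 0.00304). Between the diets with papain, 0 were higher (8.13% of all genes) and 4 were lower (3.07% of all genes) at any fold on the AhR-poor diet. These were Ksr1 (-0.58), Cbl (-0.54), Gab1 (-0.45) and Ptpn11 (-0.35). The part of the keratinocyte markers in these differences was not tested. Of 7 JNK and p38 kinases, 0 were differentially expressed with papain on either diet, and at any fold 2 were higher on each and 1 was lower on the I3C diet. Of 8 other feedback genes tested (other DUSPs, Spred3, Errfi1 and Lrig1, out of 9 listed), Dusp9 alone was differentially expressed with papain, at 1.22 on the AhR-poor diet (SE 0.21, edgeR adjusted p = 2.00e-04). It passed at any fold on the I3C diet (0.93, SE 0.21, edgeR adjusted p = 0.00183), where Spred3 was higher (0.72) and Lrig1 was lower (-0.87) at any fold. Between the diets with papain, Dusp2 was higher on the AhR-poor diet (1.52, SE 0.23, edgeR adjusted p = 1.60e-04). Neutrophil and macrophage sums were higher there too, at the values given above, and their part in the Dusp2 result was not tested.

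Of 16 transcripts known to follow ERK activity, 1 was differentially expressed upwards and 0 downwards with papain on the AhR-poor diet, and 0 upwards and 2 downwards on the I3C diet. At any fold, 1 rose and 2 fell on the AhR-poor diet, the 2 being Fos (-0.65, edgeR adjusted p = 6.09e-04) and Myc (-0.68, edgeR adjusted p = 0.00143), and 0 rose and 5 fell on the I3C diet. The median log2 fold change of the 16 was -0.17 and -0.59. The gene called upwards was Plaur, the urokinase receptor (2.10, SE 0.33, edgeR adjusted p = 2.00e-04), which was also higher on the AhR-poor diet with papain (1.77, SE 0.32, edgeR adjusted p = 0.00149). The neutrophil and macrophage markers given above were higher in these same comparisons, and their part in the Plaur result was not tested. Those called downwards were Etv1 (-3.00, SE 0.69, edgeR adjusted p = 0.00213), an ETS factor measured at 0.660 ± 0.227 CPM with vehicle and 0.0731 ± 0.146 CPM with papain (SD, n = 4 each), where a single library was above 0, and Myc (-1.07, SE 0.15, edgeR adjusted p = 1.70e-05). Of the 10 dissociation-associated genes, 0 passed on the AhR-poor diet, and 5 fell at any fold on the I3C diet. Of these 5, Nr4a1 (-1.14), Zfp36 (-1.07) and Dnajb1 (-1.03) were differentially expressed and Junb (-0.84) and Jun (-0.70) were not, with medians over the list of -0.48 and -0.71.

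After papain, the AhR target Cyp1a1 measured 0.235 ± 0.162 CPM in I3C-fed mice (SD, n = 4). In mice fed the AhR-poor diet it measured 1.67 ± 0.425 CPM (SD, n = 4). The log2 fold change was 2.79 (SE 0.52, edgeR adjusted p = 9.19e-04). With vehicle Cyp1a1 was at 1.49 ± 0.919 and 1.22 ± 0.611 CPM, and these groups overlapped. Its level in epidermis was low in every group, and the order after papain was not that of the ligand supply of the diets. These values are no check on the diets, which the study checked in liver and serum. Several marker sums given above differed between the diets after papain, and their part in the Cyp1a1 result was not tested. Of the 5 AhR target genes, 0 passed between the diets with vehicle and, after papain, 2 were higher and 0 lower in AhR-poor fed mice.

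**Figure D4:**
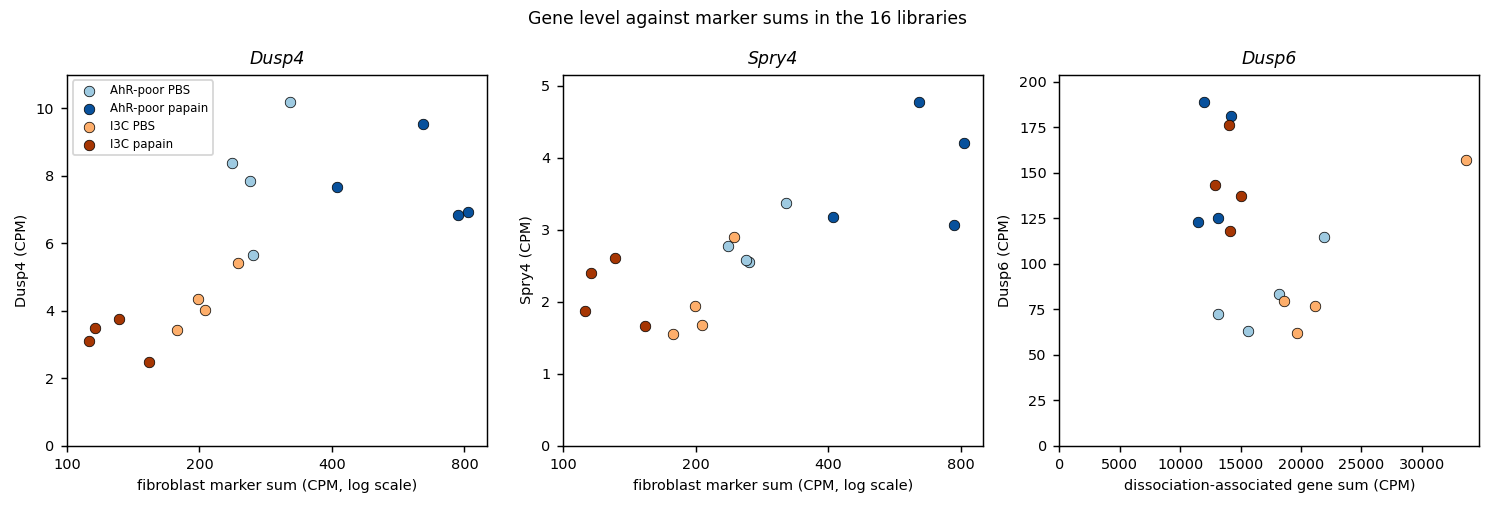
Level of Dusp4 and Spry4 (vertical axis, CPM) against the summed fibroblast markers (horizontal axis, CPM, log scale), and of Dusp6 (CPM) against the summed dissociation-associated genes (CPM), in the 16 libraries coloured by group. The AhR-poor libraries hold the higher values of Dusp4, the fibroblast sums of the vehicle groups, which include Sparc, overlap (I3C up to 244 CPM, AhR-poor from 237 CPM; without Sparc up to 13.6 and from 97.2 CPM), and T108 is the point at 33653 CPM and 157 CPM in the Dusp6 panel.

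The genes with the pattern most like those called were sought over the 16 libraries, as the smallest root mean square difference of centred log2 CPM among 13025 genes with at least 1 CPM on average. For Spred2 they were Ehbp1 (0.112), Micall2 (0.119) and Slc1a4 (0.119), and for Dusp4 they were Mgll (0.208), Alcam (0.210) and Msrb3 (0.255). Between the members themselves, Spry2 and Spred1 (0.208), Dusp5 and Spry2 (0.217), Dusp1 and Spred1 (0.240) and Spry1 and Spred2 (0.250) were the closest pairs. These are descriptions, and the libraries share their groups and depths.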

How the data were processed

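The authors made TruSeq Stranded mRNA libraries, sequenced them on a NovaSeq instrument and, per the labels, used FastQC, STAR, DESeq2 and the mm10 build. They deposited raw counts of reads per gene and library without normalization. The counting tool, the annotation and the strand setting are not given in the sources used here, and the sequencing unit of each library is not named. Of 50600 identifiers, 50376 were matched to GENCODE M21 (GRCm38), and 21610 had no count. Groups came from each library's label.

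The 22155 genes with 10 or more counts summed over the libraries were tested in edgeR 4.0.16 under R 4.3.3, with TMM factors, a mean for each of the 4 groups and the robust quasi-likelihood F test over all 16 libraries. The p-values were adjusted by Benjamini-Hochberg over all genes, and the SE is the log2 fold change divided by the square root of F. The members, pathway lists, markers and thresholds were chosen with earlier results of these data known, and support nothing on their own. Named genes were all 10 members and, from each pathway list, at most 4 differentially expressed genes by size, with Hbegf, Ereg, Egfr, Erbb3, Map2k1, Mapk3, Sos2, Cbl, Gab1, Ptpn11, Fos, Jun, Junb, Spred3, Lrig1, Cyp1a1, Sparc and the genes named as any-fold results chosen after their values were seen. So were Egf, Notch3, Dsp, Trp63, Ivl and Krt5. The settings varied were the scaling (RLE, or library size alone), the filter (filterByExpr, or any counted gene), the tool (DESeq2 1.42.0, Wald), the libraries in the model (only the 8 compared), the thresholds, the fibroblast covariate, and the omission of each library. Leaving out T108 and T100 together was added after seeing the data. The edgeR steps were tested on simulated data, and the DESeq2 steps were not. The libraries are separate samples by their labels, and the p-values measure the spread between them. Replicate pairs differed by more than counting error (chi-square per degree of freedom at least 9.43). Figures were drawn with matplotlib 3.10.9.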

Additional observations from a re-analysis of the deposited data

Results flagged for a closer look

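Of 40 groups of 4 libraries (10 genes in 4 groups), 1 held a library far from the others for its group. Spred2 in the AhR-poor vehicle group measured 62.8 CPM in T102, and the gap to the next library, 66.9 CPM, took up most of the range of the group, which was 62.8 to 67.7 CPM. Chance alone flags about 1 in 20 such groups. None of the 10 genes had an interaction of diet and papain past the threshold.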

How the results depend on the processing

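The counts of the genes called kept within 1.5 times of the reported count in 244 of 252 alternatives, and the log2 fold change of a gene kept its direction and its side of the threshold in 1218 of 1260. With no minimum fold, the genes called lower were 2 (papain, AhR-poor diet) and 3 (papain, I3C diet), and those called higher on the AhR-poor diet were 1 (vehicle) and 2 (papain). Leaving out single libraries gave 0 to 1 gene higher between the diets with vehicle, the 1 being Dusp4 without T108 or without T102. With the fibroblast covariate, 0 were higher between the diets with papain, under the limit below. Without T108 and T100, chosen after seeing the data, 1 gene was higher with papain on the AhR-poor diet, Dusp6, under the limit given above. No other count was moved. The cause was not tested.

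The direction reversed in 32 values of 15 results, none of which had passed in its comparison. With the fibroblast covariate, which separates the diets without overlap and so cannot be told apart from them, the SEs were 0.34 to 1.42 and the values for the AhR-poor against the I3C diet were -0.061 (Spry1) and -0.26 (Spry2) with vehicle. With papain they were -0.70 (Dusp5), -0.89 (Dusp6), -0.27 (Dusp10), -0.0050 (Spry1) and -0.19 (Spry2). Scaling by library size only gave Dusp1 0.086 between the diets with papain. This scaling moved the median of all genes in that comparison from 0.01 to 0.11. For papain on the AhR-poor diet, Dusp10 was 0.0029 with RLE factors, 0.0045 in DESeq2 and 0.22 without T108 and T100, and Dusp4 was 0.095 without both libraries. Leaving out 1 library at a time, papain on the AhR-poor diet gave -0.17 to 0.095 (Dusp4) and -0.16 to 0.22 (Dusp10), and papain on the I3C diet gave -0.033 to 0.31 (Spry4). The diets with vehicle gave -0.36 to 0.20 (Dusp6), -0.44 to 0.19 (Dusp10), -0.056 to 0.19 (Spry1) and -0.033 to 0.15 (Spry2), and with papain -0.096 to 0.020 (Dusp1) and -0.023 to 0.23 (Dusp6). The interaction gave -0.093 to 0.48 (Dusp6) and -0.022 to 0.23 (Spry1).

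No paired analysis was possible because no code of a replicate occurs in more than 1 group. With 4 libraries a group, an exact permutation test cannot give a p below 0.0286. Diet was shared with cage, and Spry4 rested on as few as 52 counts in a library.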
